A study of Vitis riparia with 12 samples.

Results

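The data describe 10 gene loci of the gibberellin pathway in shoot tips of the riverbank grapevine Vitis riparia, taken from the 29970 loci listed in each library. They were chosen by identifier from a list of homologs of the gibberellin 20-oxidases, 3-oxidases and 2-oxidases and of the DELLA genes, GAI1 included. The deposited files give identifiers and positions only, so which of the 10 identifiers is which enzyme or which DELLA gene is not given in the sources used here, and the loci are described by identifier. All vines were of genotype PI588259, potted, spur-pruned and 6 years old, and had grown at a photoperiod of 15 h for 30 days before they were randomized. After 5 more days one set moved to 13 h (the short photoperiod, SD) and the other stayed at 15 h (the long photoperiod, LD). Tips spanning 4 nodes were cut in the morning after 7 or 21 days, which gave the groups SD21, LD21, SD7 and LD7. Each group has 3 libraries, and a library pools 5 vines of this single genotype. Because the abbreviation SD is taken by the photoperiod, standard deviations are written s.d.

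Gibberellins are growth hormones that drive the elongation of stems. In their pathway the 20-oxidases and then the 3-oxidases carry out the last steps that make the bioactive forms, and the 2-oxidases deactivate gibberellins. DELLA proteins are nuclear repressors of growth, which are broken down once a gibberellin has bound its receptor, and the grapevine gene GAI1 encodes a DELLA protein whose altered form in a mutant of Vitis vinifera gives dwarf vines that bear inflorescences in place of tendrils. In many woody plants short photoperiods bring shoot growth to a stop, and the comparisons below ask how the transcripts of this pathway stood when the photoperiod was shortened.

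Transcript abundance is given as FPKM, in which fragment numbers are divided by the length of the transcript and by the mapped fragments of the library. Levels of different loci are set side by side on that scale, although the treatment of reads shared by similar genes is not given. The 3 most abundant loci were VIT_14s0006g00640 (chromosome 14, 14806871 to 14809122), VIT_01s0011g05260 (chromosome 1, 4895036 to 4897415) and VIT_11s0016g04630 (chromosome 11, 3959480 to 3961177), which had between 22.1 and 303 FPKM in the 12 libraries. A further 6 loci had between 0.974 and 32.2 FPKM, namely VIT_03s0063g01150 (chromosome 3, 4642813 to 4644285), VIT_19s0140g00120 (chromosome 19, 15497746 to 15499547), VIT_16s0022g02310 (chromosome 16, 14861533 to 14863137), VIT_04s0008g04920 (chromosome 4, 4415689 to 4418033), VIT_18s0001g01390 (chromosome 18, 1982982 to 1985445) and VIT_10s0116g00410 (chromosome 10, 190069 to 195160). The last, VIT_19s0177g00030 (chromosome 19, 5864514 to 5868916), reached at most 0.597 FPKM. Positions are those of the files, whose genome build is not given in the sources used here. The listed genes just before and after each of the 10 by start position did not overlap or touch it, the nearest lying 374 bp away.

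**Figure D1:**
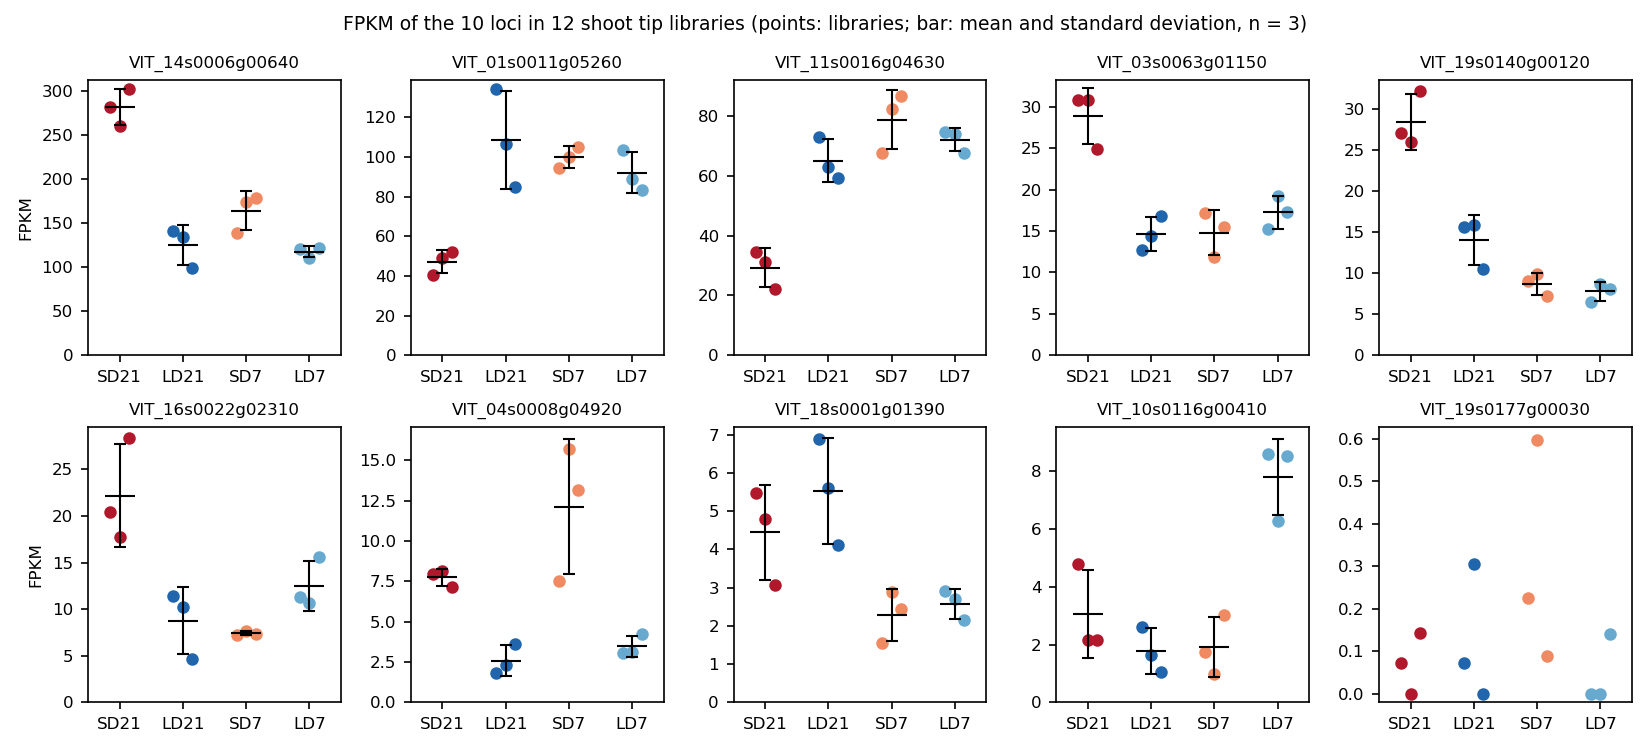
FPKM of each of the 10 loci (vertical axis, a separate linear scale per panel) in the groups SD21, LD21, SD7 and LD7. Points are libraries, and the black bars give the mean and standard deviation of 3 libraries, except for VIT_19s0177g00030, where values listed at 0 occur. VIT_14s0006g00640 lay between 261 and 303 FPKM in SD21, above its 9 other libraries, while VIT_01s0011g05260 and VIT_11s0016g04630 were lowest in the 3 SD21 libraries.

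The SD21 libraries stood apart from the rest of the series. Their 10 most abundant genes held 16.2% to 21.3% of the FPKM, against 4.81% to 5.85% in LD21, and 9.39% to 9.94% in SD7 against 8.48% to 9.05% in LD7. FPKM is relative to the mapped fragments of a library. The median log2 fold change over the 21848 tested genes was -0.30 in SD21 against LD21. That median moved to 0.02 with quantile normalization and to -0.02 with median-ratio scaling, so changes at day 21 are also given relative to it. The part of the top 10 genes in that median, and of either in the changes of single loci, was not tested. Ratios of 2 loci within a library do not depend on the scaling of the library. The header in the file of SD21 replicate 3 names replicate 2, yet only 1 nonzero value was identical between the files. The tissue label could not be checked against marker genes because the identifiers were not paired with names.

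At day 21, VIT_14s0006g00640 rose while the other 2 abundant loci fell. VIT_14s0006g00640 had 283, 261 and 303 FPKM in the SD21 libraries, against 141, 134 and 99.0 FPKM in the LD21 libraries. Every SD21 library lay above every LD21 library. The log2 fold change of FPKM + 1 was 1.18 ± 0.15 (SE, limma adjusted p = 3e-05), or 1.48 above the median of all tested genes. VIT_01s0011g05260 went the other way, with 40.7, 49.0 and 52.0 FPKM in SD21, against 134, 106 and 84.8 FPKM in LD21. Here all SD21 libraries lay below all LD21 libraries, and the log2 fold change was -1.17 ± 0.16 (SE, limma adjusted p = 6.2e-05). VIT_11s0016g04630 had 34.7, 31.3 and 22.1 FPKM in SD21, against 73.2, 62.9 and 59.4 FPKM in LD21. Its libraries did not overlap either, and its log2 fold change was -1.14 ± 0.16 (SE, limma adjusted p = 7e-05). Relative to the median of all tested genes, both falls were smaller, at -0.86 for VIT_01s0011g05260 and -0.84 for VIT_11s0016g04630. The tips hold several tissues, so fewer cells of a type and less RNA per cell cannot be told apart in these values.

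In FPKM as deposited, the sum of these 3 loci changed less than its make-up. It was 359 ± 17.7 FPKM in SD21 and 299 ± 53.0 FPKM in LD21 (mean ± s.d., n = 3 each), and the ranges, 341 to 377 FPKM in SD21 and 243 to 349 FPKM in LD21, overlapped. Unlike the shares, the sum depends on the scaling of the library. The size factors of median-ratio scaling were 0.858 to 0.922 in SD21 and 1.10 to 1.15 in LD21. Dividing by them raises the sum in SD21 and lowers it in LD21, and the ranges then no longer overlap. The overlap is thus that of the deposited FPKM only. VIT_14s0006g00640 made up 78.9%, 76.5% and 80.3% of the sum in the SD21 libraries, against 40.5%, 44.2% and 40.7% in the LD21 libraries. VIT_01s0011g05260 made up 11.4% to 14.3% in SD21, against 34.8% to 38.5% in LD21. VIT_11s0016g04630 made up 5.87% to 9.69% in SD21, against 20.7% to 24.4% in LD21. At day 7 the share of VIT_14s0006g00640 was 46.1% to 48.9% in SD7, against 40.3% to 44.7% in LD7, so the groups did not overlap there but lay close.

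Within a library, VIT_14s0006g00640 stood 5.33 to 6.94 times as high as VIT_01s0011g05260 in SD21, against 1.05 to 1.26 times in LD21. The same ratio was 1.47 to 1.75 in SD7, against 1.17 to 1.47 in LD7, where the ranges met. The ratio of VIT_01s0011g05260 to VIT_11s0016g04630, in contrast, was 1.17 to 2.35 in SD21, against 1.43 to 1.83 in LD21, so these 2 loci kept overlapping ratios while both fell. With 3 libraries against 3, no exact two-sided permutation test of a single ratio can give a p below 0.10. These 3 loci were set together for their abundance, after their values were seen.

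**Figure D2:**
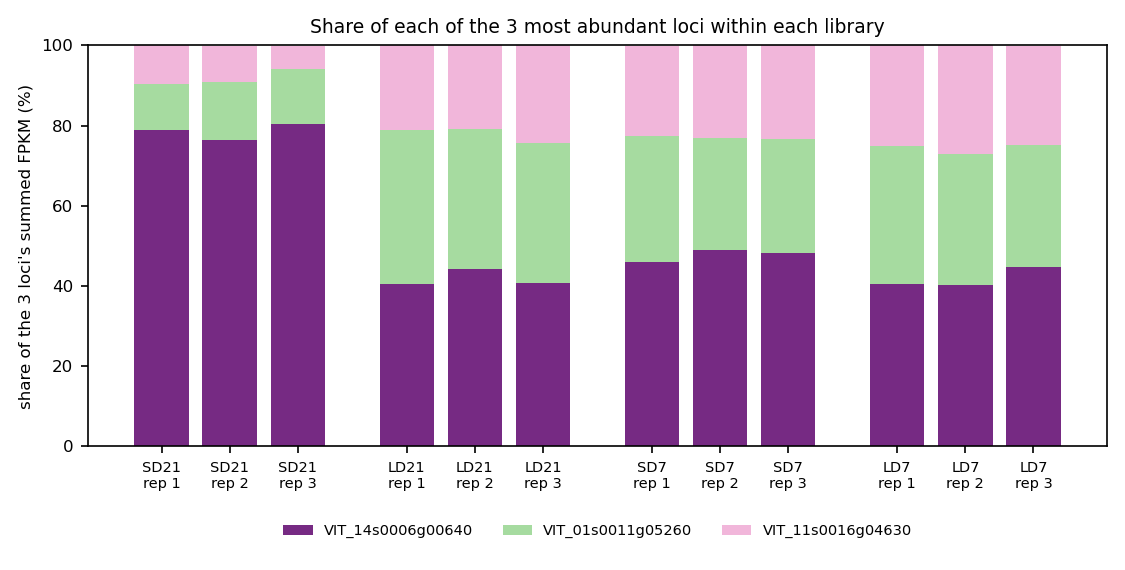
Stacked bars give, for each of the 12 libraries, the share in percent of VIT_14s0006g00640, VIT_01s0011g05260 and VIT_11s0016g04630 in the summed FPKM of the 3 loci. VIT_14s0006g00640 took 76.5% to 80.3% in SD21, against 40.3% to 48.9% in the 9 libraries of LD21, SD7 and LD7.

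Of the 6 loci of lower abundance, 4 rose in SD21 against LD21. VIT_16s0022g02310 had 20.4, 17.7 and 28.3 FPKM in SD21, against 11.4, 10.3 and 4.66 FPKM in LD21, a log2 fold change of 1.30 ± 0.27 (SE, limma adjusted p = 0.00135). VIT_03s0063g01150 had 30.9, 30.8 and 25.0 FPKM in SD21, against 12.7, 14.4 and 16.8 FPKM in LD21, and its log2 fold change was 0.94 ± 0.16 (SE, limma adjusted p = 0.00025). In both, no SD21 library overlapped an LD21 library. VIT_19s0140g00120 had 27.0, 25.9 and 32.2 FPKM in SD21, against 15.6, 15.9 and 10.5 FPKM in LD21 (log2 fold change 0.98 ± 0.18, SE, limma adjusted p = 0.00039). VIT_04s0008g04920 had 7.97, 8.12 and 7.12 FPKM in SD21, against 1.81, 2.34 and 3.63 FPKM in LD21 (1.31 ± 0.25, SE, limma adjusted p = 0.00061). The groups were apart in these 2 loci as well. Relative to the median of all tested genes, the 4 rises were 1.60, 1.24, 1.29 and 1.61 in the order given.

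The remaining pair was not called at day 21. VIT_18s0001g01390 had 5.47, 4.81 and 3.06 FPKM in SD21, against 6.89, 5.61 and 4.11 FPKM in LD21, and the groups overlapped. Its log2 fold change was -0.27 ± 0.23 (SE, limma adjusted p = 0.319), with a 95% confidence interval from -0.77 to 0.24, and its sign turned to 0.14 with quantile normalization and to 0.014 with median-ratio scaling. VIT_10s0116g00410 had 4.80, 2.17 and 2.17 FPKM in SD21, against 2.62, 1.62 and 1.06 FPKM in LD21. These groups overlapped too, the log2 fold change was 0.52 ± 0.32 (SE, limma adjusted p = 0.161), and the interval ran from -0.17 to 1.22. With quantile normalization it was 0.91 and called (adjusted p = 0.0216).

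In all, 7 of the 9 tested loci were called in SD21 against LD21, where 68.3% of all tested genes were called. Of these, 5 were higher and 2 lower, against 24.6% higher and 43.7% lower among all tested genes. Quantile normalization changed that split over all genes to 7339 higher and 7099 lower, against 5376 and 9545 as deposited, median-ratio scaling changed it to 7260 and 7398, and quantile normalization changed the loci to 6 higher and 2 lower. No library overlapped between the groups in 7 of the 9, against 69.8% of all tested genes. The median log2 fold change of the 9 loci was 0.94, and that of all tested genes was -0.30. The 7 calls held with each of the 12 libraries left out in turn and under every other alternative run. Changes larger than those of the 3 abundant loci were common, with 34.0% of tested genes above VIT_14s0006g00640, 34.7% above VIT_01s0011g05260 and 35.5% above VIT_11s0016g04630 in absolute log2 fold change.

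At day 7, 2 of the loci were called between the photoperiods, in opposite directions. VIT_04s0008g04920 had 7.52, 15.7 and 13.1 FPKM in SD7, against 3.07, 3.10 and 4.22 FPKM in LD7. All SD7 libraries lay above all LD7 libraries, and the log2 fold change was 1.51 ± 0.25 (SE, limma adjusted p = 0.0303). VIT_10s0116g00410 had 1.76, 0.974 and 3.04 FPKM in SD7, against 8.58, 6.29 and 8.52 FPKM in LD7. Its SD7 libraries all lay below its LD7 libraries, and the log2 fold change was -1.64 ± 0.32 (SE, limma adjusted p = 0.0444). In VIT_04s0008g04920 the difference rested on 135, 186 and 150 reads in SD7, against 35, 38 and 61 reads in LD7. In VIT_10s0116g00410 it rested on 41, 15 and 45 reads in SD7, against 127, 100 and 160 reads in LD7. These read numbers were recovered from the steps of the FPKM values and are not scaled for depth. Within a library, the ratio of VIT_04s0008g04920 to VIT_10s0116g00410 was 4.28, 16.1 and 4.33 in SD7, against 0.358, 0.494 and 0.496 in LD7. This pair was set together after its values were seen, because both loci were called in opposite directions with libraries apart, so the separation of the ratio follows from that choice. At day 21 the same ratio was 1.66, 3.75 and 3.28 in SD21, against 0.691, 1.44 and 3.41 in LD21, and the groups overlapped.

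**Figure D3:**
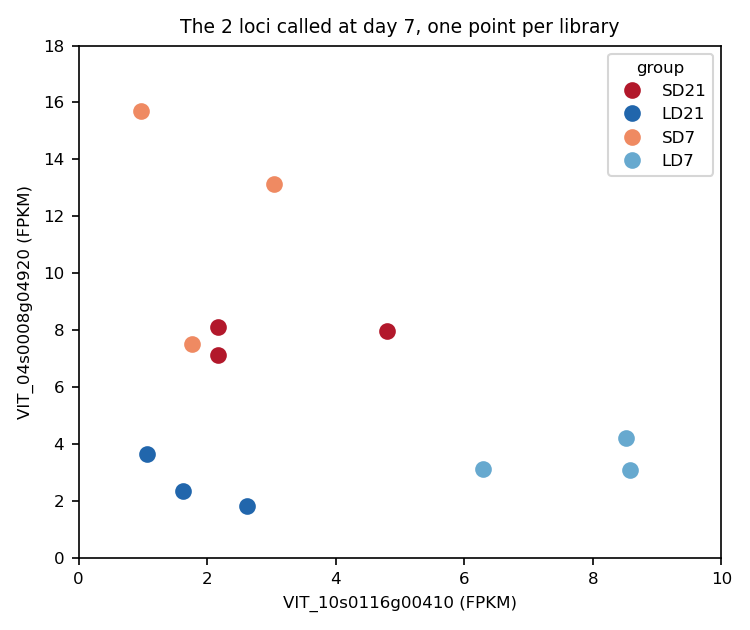
Each point is 1 library, placed by its FPKM of VIT_10s0116g00410 (horizontal axis) and VIT_04s0008g04920 (vertical axis), coloured by group. The LD7 libraries lie at the lower right, from 6.29 to 8.58 FPKM on the horizontal axis, and the SD7 libraries at the upper left, from 7.52 to 15.7 FPKM on the vertical axis.

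Both day 7 calls lay near the threshold and were lost in several fits with 1 library left out. Without LD7 replicates 1, 2 and 3, calls over all tested genes fell as well, from 182 to 2, 2 and 11. The adjusted p of VIT_04s0008g04920 was 0.0916 without SD7 replicate 2 and 0.0684 without SD7 replicate 3. It was 0.0861, 0.143 and 0.0742 without LD7 replicates 1, 2 and 3, and 0.0688 with only the groups compared in the fit. For VIT_10s0116g00410 it was 0.101 without SD7 replicate 1 and 0.148 without SD7 replicate 2, and 0.124, 0.143 and 0.124 without LD7 replicates 1, 2 and 3. It was also 0.0542 without SD21 replicate 3 and 0.067 without LD21 replicate 2, which enter only the estimate of the spread. Further settings that ended this call were median-ratio scaling (0.0523), testing all genes without a filter (0.0605), a pseudocount of 0.1 (0.0625), limma without trend and robust (0.0513), only the groups compared (0.0654) and the replicate number as a block (0.0517). The log2 fold changes stayed between 1.31 and 1.79 for VIT_04s0008g04920 and between -2.08 and -1.39 for VIT_10s0116g00410 over all these alternatives.

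The other 7 tested loci were not called at day 7. VIT_16s0022g02310 had 7.27, 7.69 and 7.39 FPKM in SD7, against 11.3, 10.7 and 15.6 FPKM in LD7. The groups did not overlap, but the log2 fold change of -0.66 ± 0.27 (SE) had a limma adjusted p of 0.291. VIT_14s0006g00640 had 139, 175 and 179 FPKM in SD7, against 121, 110.1 and 122 FPKM in LD7. Its SD7 libraries were likewise all above its LD7 libraries, with a log2 fold change of 0.47 ± 0.15 (SE, limma adjusted p = 0.188) and a 95% confidence interval from 0.13 to 0.80. The groups overlapped in the remaining 5, namely VIT_18s0001g01390, VIT_03s0063g01150, VIT_19s0140g00120, VIT_01s0011g05260 and VIT_11s0016g04630, whose log2 fold changes ran from -0.22 to 0.15. VIT_01s0011g05260 had 94.6, 100.1 and 105 FPKM in SD7, against 103, 89.0 and 83.5 FPKM in LD7, and its interval ran from -0.24 to 0.48. VIT_11s0016g04630 had 67.8, 82.4 and 86.7 FPKM in SD7, against 74.8, 74.0 and 67.7 FPKM in LD7, with an interval from -0.24 to 0.48 as well. Changes of the size seen for these 2 loci at day 21 thus lay outside the day 7 intervals.

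Over the 9 tested loci, 2 were called at day 7, where 0.833% of all tested genes were called. Of these, 1 was higher and 1 lower, against 0.357% and 0.476% of all tested genes. Groups that did not overlap numbered 4 of the 9, against 24.8% of all tested genes. The median log2 fold change was 0.12 for the 9 loci and -0.03 for all tested genes.

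**Figure D4:**
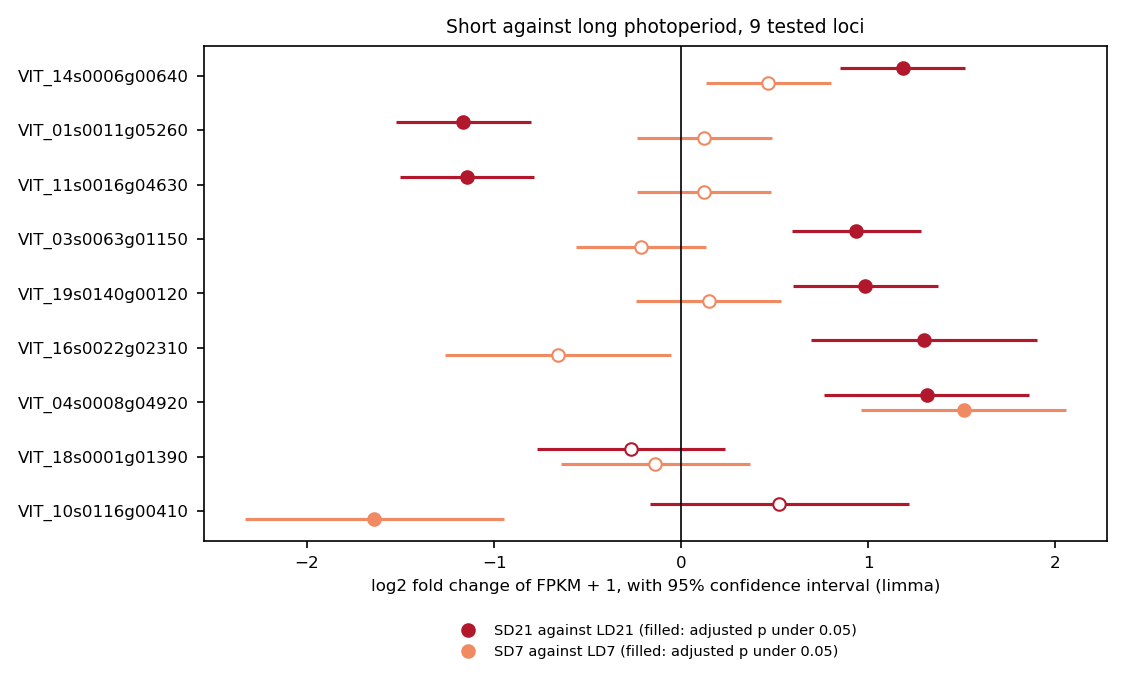
Log2 fold changes of FPKM + 1 with 95% confidence intervals (limma, 12 libraries) for the 9 tested loci, in SD21 against LD21 and SD7 against LD7. Filled points have an adjusted p under 0.05. At day 21, 7 points are filled, with VIT_01s0011g05260 and VIT_11s0016g04630 to the left of 0, and at day 7 only VIT_04s0008g04920 at 1.51 and VIT_10s0116g00410 at -1.64 are filled.

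Whether the photoperiod difference itself changed between the days was tested as SD21 against LD21 less SD7 against LD7. It was called in 7 of the 9 tested loci, where 55.1% of all tested genes were called. The difference was positive in 5 and negative in 2, against 19.6% and 35.5% of all tested genes. The median difference over all tested genes was -0.29, and -0.01 with quantile normalization. VIT_10s0116g00410 had the largest of the 9, at 2.16 ± 0.45 on the log2 scale (SE, limma adjusted p = 0.00167), from log2 fold changes of 0.52, not called, at day 21 and -1.64 at day 7. In this locus the LD7 libraries, at 6.29 to 8.58 FPKM, lay above all libraries of the other groups, whose ranges overlapped. VIT_16s0022g02310 followed with 1.96 ± 0.39 (SE, limma adjusted p = 0.00135), from 1.30 at day 21 and -0.66, not called, at day 7. VIT_03s0063g01150, VIT_19s0140g00120 and VIT_14s0006g00640 had differences of 1.15, 0.84 and 0.72 (adjusted p = 0.00111, 0.0142 and 0.0147). VIT_01s0011g05260 and VIT_11s0016g04630 had -1.29 and -1.26 (adjusted p = 0.00068 and 0.00076).

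VIT_04s0008g04920 was the 1 locus of the 9 called in the same direction at both days. Its log2 fold change was 1.31 at day 21 and 1.51 at day 7, and their difference was -0.20 ± 0.35 (SE, limma adjusted p = 0.658) with a 95% confidence interval from -0.97 to 0.58. The sign of that difference turned with quantile normalization (0.11) and median-ratio scaling (0.064). The read numbers were 110, 124 and 101 in SD21, against 25, 31 and 42 in LD21. The 3 LD21 libraries together held 98 reads, fewer than any single SD21 library.

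Time under each photoperiod moved the loci differently. Under continued LD, 3 of the 9 tested loci were called in LD21 against LD7, where 18.1% of all tested genes were called. Of these, 2 were higher and 1 lower, against 10.5% and 7.63% of all tested genes. The split over all genes turned to 1669 higher and 1944 lower with quantile normalization, and to 1185 and 1980 with median-ratio scaling. The median log2 fold change of all tested genes was 0.11, and 0.06 and 0.02 with these 2 settings. VIT_10s0116g00410 fell to 2.62, 1.62 and 1.06 FPKM in LD21, against 8.58, 6.29 and 8.52 FPKM in LD7, and its log2 fold change of -1.69 ± 0.32 (SE, limma adjusted p = 0.00704) was called under every alternative run. This comparison and that of SD7 against LD7 share the LD7 libraries, which were the highest of the 12 in this locus. VIT_19s0140g00120 had 15.6, 15.9 and 10.5 FPKM in LD21, against 6.51, 8.69 and 8.06 FPKM in LD7 (log2 fold change 0.76 ± 0.18, SE, limma adjusted p = 0.0157). The call was lost without LD21 replicate 2 (adjusted p = 0.0694) or LD7 replicate 1 (0.0521). VIT_18s0001g01390 had 6.89, 5.61 and 4.11 FPKM in LD21, against 2.90, 2.70 and 2.14 FPKM in LD7 (0.85 ± 0.23, SE, limma adjusted p = 0.0289). This call was lost without LD21 replicate 1 (adjusted p = 0.0879) or 2 (0.0914), without LD7 replicate 1 (0.0501), 2 (0.0731) or 3 (0.103), and with median-ratio scaling (0.0511). The 3 abundant loci were not called over this interval, with log2 fold changes of 0.07 for VIT_14s0006g00640, 0.22 for VIT_01s0011g05260 and -0.15 for VIT_11s0016g04630. The first of these turned to -0.043 with median-ratio scaling.

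Under SD, 7 of the 9 tested loci were called in SD21 against SD7, where 61.1% of all tested genes were called. Of these, 5 were higher and 2 lower, against 23.4% and 37.7% of all tested genes. The median log2 fold change of all tested genes was -0.20, and 0.02 with quantile normalization. VIT_19s0140g00120 rose most, with 27.0, 25.9 and 32.2 FPKM in SD21, against 8.98, 9.88 and 7.25 FPKM in SD7 (log2 fold change 1.60 ± 0.18, SE, limma adjusted p = 1.4e-05). VIT_16s0022g02310 had a log2 fold change of 1.43 ± 0.27 (SE, limma adjusted p = 0.00087), VIT_03s0063g01150 of 0.92 ± 0.16 (0.00036) and VIT_14s0006g00640 of 0.78 ± 0.15 (9e-04). VIT_18s0001g01390 had 5.47, 4.81 and 3.06 FPKM in SD21, against 1.55, 2.88 and 2.44 FPKM in SD7, and its log2 fold change of 0.72 ± 0.23 (SE, limma adjusted p = 0.0176) was of the same sign as under LD. That call was lost without SD21 replicate 1 (adjusted p = 0.0687) or 2 (0.0525) or SD7 replicate 1 (0.0777). VIT_11s0016g04630 and VIT_01s0011g05260 fell, with log2 fold changes of -1.41 ± 0.16 and -1.07 ± 0.16 (SE, limma adjusted p = 2e-05 and 0.00016).

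Neither VIT_04s0008g04920 nor VIT_10s0116g00410 was called in SD21 against SD7. VIT_04s0008g04920 had a log2 fold change of -0.53 ± 0.25 (SE, limma adjusted p = 0.084), which was called without SD7 replicate 1 (-0.82, adjusted p = 0.00872). VIT_10s0116g00410 had 0.47 ± 0.32 (SE, limma adjusted p = 0.219), which was called with quantile normalization (0.79, adjusted p = 0.0456).

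**Figure D5:**
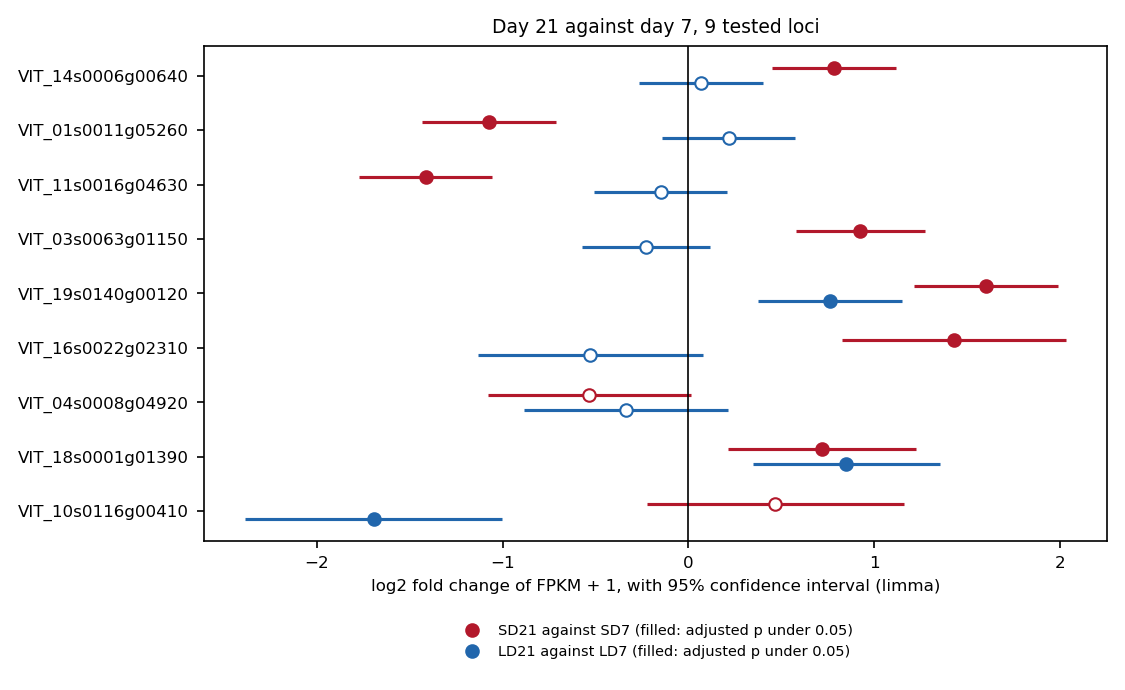
Log2 fold changes of FPKM + 1 with 95% confidence intervals (limma, 12 libraries) for the 9 tested loci, in SD21 against SD7 and LD21 against LD7. Filled points have an adjusted p under 0.05. VIT_18s0001g01390 and VIT_19s0140g00120 are filled on the right of 0 under both photoperiods, and VIT_10s0116g00410 is filled on the left, at -1.69, under LD.

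The order of levels shifted with these changes. In LD21, SD7 and LD7 the 3 abundant loci stood in the order VIT_14s0006g00640, VIT_01s0011g05260 and VIT_11s0016g04630, each above all libraries of the next except that the first 2 overlapped in LD21. In SD21 VIT_14s0006g00640 and VIT_01s0011g05260 still led, but VIT_11s0016g04630, at 29.4 ± 6.51 FPKM (mean ± s.d., n = 3), overlapped VIT_03s0063g01150 at 28.9 ± 3.38 FPKM, which in turn overlapped VIT_19s0140g00120 at 28.4 ± 3.36 FPKM, and that locus overlapped VIT_16s0022g02310 at 22.2 ± 5.52 FPKM. The mean of VIT_14s0006g00640 in SD21 exceeded that of 98.4% of all listed genes.

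VIT_19s0177g00030 did not reach 1 FPKM in any library and did not pass the filter on low values. It had 0.0733, 0 and 0.143 FPKM in SD21, against 0.0733, 0.305 and 0 FPKM in LD21, and 0.225, 0.597 and 0.0886 FPKM in SD7, against 0, 0 and 0.140 FPKM in LD7. Scaled by the relative depth of the libraries, the nonzero values were whole multiples of the smallest, which corresponds to 3 reads in all in SD21, against 5 in LD21, and 12 in SD7, against 2 in LD7. Without the filter its log2 fold change was -0.06 ± 0.14 in SD21 against LD21 (SE, limma adjusted p = 0.728) and 0.30 ± 0.14 in SD7 against LD7 (SE, unadjusted p = 0.0555, limma adjusted p = 0.391). It was called in none of the 5 comparisons of that fit, where its adjusted p ran from 0.14 to 0.728, and no difference was detectable at this depth.

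How far other genes followed the same course across the 12 libraries differed among the loci. Likeness was measured as Pearson's r of log2(FPKM + 1) over the 12 libraries, which mostly follows the 4 groups and is given as a description. VIT_10s0116g00410 had 0 genes with r of 0.9 or more, VIT_18s0001g01390 had 4, VIT_04s0008g04920 had 17 and VIT_16s0022g02310 had 18. VIT_03s0063g01150 had 310, VIT_19s0140g00120 had 375, VIT_14s0006g00640 had 515, VIT_11s0016g04630 had 1610 and VIT_01s0011g05260 had 1721. The 2 loci that fell in SD21 had the most such genes. In FPKM as deposited, more tested genes were called lower (43.7%) than higher (24.6%) in SD21 against LD21. That split was 7339 higher and 7099 lower with quantile normalization, and 7260 and 7398 with median-ratio scaling. Likeness was computed on the deposited FPKM only, and a link between the split and these numbers was not tested. The 4 loci with the fewest such genes had 15 to 410 reads per library. VIT_19s0140g00120 had 138 to 850 reads and VIT_11s0016g04630 had 427 to 1657, and for the other 3 tested loci reads were not recovered. The part of read numbers in this order was not tested.

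The gene most like VIT_04s0008g04920 was VIT_03s0038g02110 (chromosome 3, 1449329 to 1451521, r = 0.932), at 32.5 ± 10.5 FPKM in SD21 and 12.6 ± 3.85 FPKM in LD21, and at 38.1 ± 7.43 FPKM in SD7 and 13.6 ± 4.02 FPKM in LD7 (mean ± s.d., n = 3 each). The gene most like VIT_14s0006g00640 was VIT_02s0025g03510 (chromosome 2, 3002686 to 3014242, r = 0.971), at 34.3 ± 3.71 FPKM in SD21 and 15.3 ± 1.05 FPKM in LD21. For VIT_11s0016g04630 it was VIT_07s0129g00560 (chromosome 7, 15804275 to 15805999, r = 0.990), at 81.5 ± 32.5 FPKM in SD21 and 361 ± 123 FPKM in LD21. For VIT_01s0011g05260 it was VIT_03s0038g02030 (chromosome 3, 1402180 to 1405517, r = 0.976), at 1.05 ± 0.27 FPKM in SD21 and 4.69 ± 0.80 FPKM in LD21. The files do not pair these identifiers with names.

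Among the loci themselves, VIT_01s0011g05260 and VIT_11s0016g04630 were the pair most alike over the 12 libraries (r = 0.876), followed by VIT_19s0140g00120 and VIT_14s0006g00640 (r = 0.793). The pair most opposed was VIT_03s0063g01150 and VIT_01s0011g05260 (r = -0.948). Of the 20 genes next to the loci by start position, 14 were tested, and in SD21 against LD21 the call was higher for 4 of these and lower for 6, with none for the other 4. Among all tested genes 68.3% were called, 24.6% higher and 43.7% lower. Around the 7 called loci, 10 neighbours were tested, of which 4 were called in the direction of the locus and 2 in the opposite direction. Whether neighbours shared a direction more often than other genes was not tested.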

How the data were processed

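Per the labels' protocols, 12 shoot tip libraries were sequenced with reads of 43 bp on an Illumina HiScanSQ. The authors deposited 1 FPKM value per gene and library, per the file headers. The submitters' processing notes name Cufflinks 2.2.1, TopHat2 2.0.13 and Bowtie2 2.2.4, with cutadapt 1.8.1 and FastQC 0.11.3. Not given in the sources used here are the genome build, the annotation, the use of strand and the treatment of reads shared by similar genes, so reads of related family members could be split among them.

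Files were joined by identifier. None of the identifiers (0 of 29970) matched the reference gene table, so the list rests on its identifiers, roles of single loci are not given, and no other pathway genes, promoters or proteins were used. Genes that reached 1 FPKM in 3 or more libraries (21848, among them 9 of the 10 loci) were tested on log2(FPKM + 1) with limma 3.58.1 in R 4.3.3, as group means over all 12 libraries with eBayes (trend and robust). That scale understates the fold changes of low genes. P-values were Benjamini-Hochberg adjusted over all tested genes, and under 0.05 was called. They set a difference between groups against the spread between replicates of pooled vines, estimated over all 12 libraries. The model was tested on simulated data.

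The loci, lists and tests were chosen with earlier results of these data known. All 10 loci are named, with the most alike genes shown for the 3 abundant loci and for VIT_04s0008g04920. Absolute depth is unknown. Relative depth, 1.00 to 1.58 between libraries, came from the most frequent FPKM ratio of low genes. FPKM times relative depth was whole within 0.1 of a read in every library for 7 of the 10 loci, taking the largest possible unit, and read numbers are given for those. Same-numbered replicates did not pair, as given in the closing section. Python 3.11.15 and matplotlib 3.10.9 drew the figures.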

Additional observations from a re-analysis of the deposited data

Results flagged for a closer look

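The photoperiod difference at day 21 less that at day 7 passed the test of the difference (limma, adjusted p under 0.05) in 7 of the 9 tested loci. On the log2 scale it was 2.16 for VIT_10s0116g00410, 1.96 for VIT_16s0022g02310, 1.15 for VIT_03s0063g01150, 0.84 for VIT_19s0140g00120 and 0.72 for VIT_14s0006g00640. It was -1.29 for VIT_01s0011g05260 and -1.26 for VIT_11s0016g04630. For VIT_10s0116g00410 the LD7 libraries lay above all others, and SD21 against LD21 was not called. The median over all tested genes was -0.29, and 55.1% of them passed the same test.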

How the results depend on the processing

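The count of called loci in SD7 against LD7, which was 2, was 1 with median-ratio scaling, no filter, a pseudocount of 0.1, limma without trend and robust, or the replicate number as a block, and 0 with only the groups compared. With each library left out it lay between 0 and 2, at 0 without SD7 replicate 2 or any 1 LD7 library. In the fits with 0 calls (limma), 3 or 4 of the 9 loci had an unadjusted p under 0.05. In the main fit it was 4 of the 9 loci, and 3258 of the 21848 tested genes. The number over all genes is not given for the fits with 0 calls. The fits with 0 calls held fewer libraries, and the cause was not tested. In SD21 against LD21 and in the difference between the days the count was 7 with each library left out. In SD21 against SD7 it lay between 6 and 7, and in LD21 against LD7 between 1 and 3, where it was 1 without LD21 replicate 2 or LD7 replicate 1. Over all tested genes, the 182 calls of SD7 against LD7 became 116, 83, 113, 9 and 74 with median-ratio scaling, no filter, limma without trend and robust, only the groups compared and the replicate block, and lay between 2 (without LD7 replicate 1 or 2) and 208 with a library left out. In LD21 against LD7 the 3963 calls were 1408 without LD21 replicate 2, 2618, 1606 and 1361 without LD7 replicates 1, 2 and 3. Quantile normalization changed the split of higher and lower calls over all genes to 101 and 86 in SD7 against LD7, 5610 and 5670 in the difference, 1669 and 1944 in LD21 against LD7, and 6741 and 6365 in SD21 against SD7. Median-ratio scaling gave 5730 and 5845 in the difference, 1185 and 1980 in LD21 against LD7, and 6532 and 6821 in SD21 against SD7.

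Signs turned only in differences that were called under neither setting. VIT_18s0001g01390 ran from -0.27 to 0.035 in SD7 against LD7 with a library left out (0.035 without SD7 replicate 1), and had 0.14 and 0.014 in SD21 against LD21 with quantile normalization and median-ratio scaling. In the difference between the days it had 0.25 with quantile normalization, 0.13 with median-ratio scaling, and -0.30 to 0.067 with a library left out, above 0 without SD21 replicate 3 (0.067) or LD21 replicate 1 (0.017). There VIT_04s0008g04920 had 0.11 with quantile normalization, 0.064 with median-ratio scaling, and -0.48 to 0.0043 with a library left out, above 0 without LD21 replicate 3 (0.0015) or SD7 replicate 2 (0.0043). VIT_14s0006g00640 had -0.043 in LD21 against LD7 with median-ratio scaling, and -0.030 to 0.23 with a library left out, below 0 without LD21 replicate 1.

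The replicate numbers did not pair the libraries. Deviations from the group means of same-numbered libraries correlated at -0.13 to 0.20, with 2 of 18 pairs over 0.1, and 4 of 12 libraries correlated best with their own number. With the replicate number as a block, VIT_10s0116g00410 in SD7 against LD7 was the 1 call that changed (adjusted p = 0.0517). Depth limits VIT_19s0177g00030, with at most 7 reads in a library, and VIT_10s0116g00410, with 15 in its lowest.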
